A study of Mus musculus with 28 samples.

Results

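The 10 genes followed here are the receptors Notch1, Notch2 and Notch3, the ligands Dll1, Jag1 and Jag2, and the transcription factor genes Hes1, Hes6, Hey1 and Heyl, chosen by symbol from the 49089 genes of the count table. All 10 were found and all 10 passed the filter on low counts, as did 15303 genes of the table. They were measured in C2C12, an immortalised line of mouse myoblasts that the labels give as wild type and that stops dividing and fuses into myotubes when serum is lowered. Growth medium (GM) held 20% fetal bovine serum, and nearly confluent cells were then given differentiation medium (DM) with 3% horse serum. RNA-seq covered GM and 12, 24, 48, 60 and 96 h in DM with 3 libraries each, and ATAC-seq (2 libraries a condition) and Hi-C (3 libraries a condition) covered GM and 60 h. All groups derive from the same line, and the labels call the replicates biological without describing separate cultures. The p-values below therefore reflect how far these libraries scatter, and that scatter may be technical.

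Notch signalling passes between touching cells. A ligand of the Delta or Jagged type on one cell binds a Notch receptor on its neighbour, the receptor is cut by an ADAM protease and then by gamma-secretase, and its released intracellular part joins the DNA-binding protein RBPJ and a Mastermind coactivator to switch on target genes. The classical targets are repressors of the Hes and Hey families, with Hes1, Hey1 and Heyl among them, while Hes6 is a relative that antagonises Hes1. In muscle the pathway is known for keeping satellite cells, the stem cells of muscle, from differentiating, and for opposing MyoD in myoblasts.

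Dll1, Hes6 and Heyl rose from GM through the time course, by 24.6-fold, 6.29-fold and 12.5-fold between their lowest and highest group means, while Jag2 fell 3.13-fold. The receptors changed less, with ranges of 2.61-fold for Notch1, 1.77-fold for Notch2 and 2.33-fold for Notch3, and went down, up, down and up again. Hes1 and Hey1 were highest at 48 to 60 h and had fallen below GM by 96 h. Ranked by this range among 9474 genes kept by a cut on mean level, Dll1 was at percentile 99.23, Hes6 at 95.37 and Jag2 at 90.19. Hes1 was lowest of the 10 at 57.71. Heyl was at 97.89, but its own mean level was below that cut. Low genes like it are therefore missing from the genes it is ranked against. Levels are CPM, read counts scaled to 10 to the power 6 of the effective library size. Gene lengths were not used here, so levels are compared within a gene and not between genes.

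**Figure D1:**
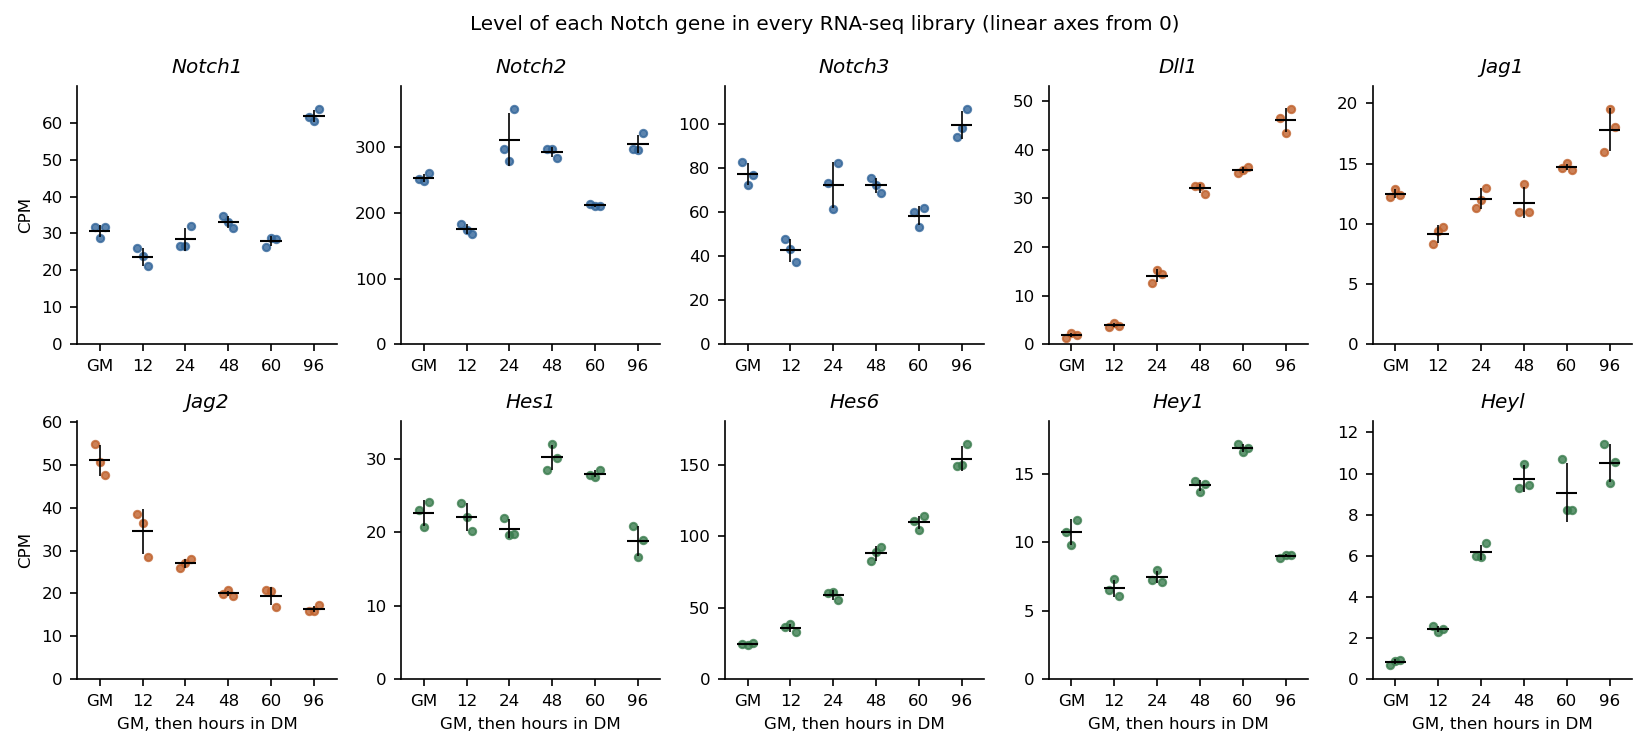
CPM (linear axis from 0) of each gene in every library, by group in GM and at 12 to 96 h in DM; points are libraries, horizontal bars the mean and vertical bars the SD of 3 libraries. Receptors are blue, ligands orange and transcription factor genes green; Dll1 and Hes6 step up at each time with no overlap between groups, while Jag2 steps down from 51.1 to 16.3 CPM.

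Promoter windows are shown for the genes that, among the 7 with a listed start, moved furthest in opposite directions, the rising Dll1 and Hes6, which have a pair of listed starts each, and the falling Jag2. Each runs from 250 bases before to 50 bases after a listed start, from RefSeq on GRCm38.p6 (mm10), 5′ to 3′ on the gene's strand, which is the minus strand in all of them. Capitals mark E-boxes, CANNTG, the letters read by MyoD, myogenin and other basic helix-loop-helix factors.
Dll1, outer start, chr17:15376883-15377182: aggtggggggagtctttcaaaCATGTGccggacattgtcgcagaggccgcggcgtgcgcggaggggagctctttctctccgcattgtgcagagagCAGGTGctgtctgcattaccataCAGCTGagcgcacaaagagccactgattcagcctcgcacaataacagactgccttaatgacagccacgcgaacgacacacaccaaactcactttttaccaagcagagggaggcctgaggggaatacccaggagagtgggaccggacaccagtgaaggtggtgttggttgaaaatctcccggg
Dll1, inner start, chr17:15375774-15376073: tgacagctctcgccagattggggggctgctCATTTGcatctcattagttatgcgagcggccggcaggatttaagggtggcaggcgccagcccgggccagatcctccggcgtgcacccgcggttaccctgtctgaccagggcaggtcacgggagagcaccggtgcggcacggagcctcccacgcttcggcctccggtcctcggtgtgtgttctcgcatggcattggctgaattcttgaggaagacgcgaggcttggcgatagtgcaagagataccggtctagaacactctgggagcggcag
Hes6, outer start, chr1:91413989-91414288: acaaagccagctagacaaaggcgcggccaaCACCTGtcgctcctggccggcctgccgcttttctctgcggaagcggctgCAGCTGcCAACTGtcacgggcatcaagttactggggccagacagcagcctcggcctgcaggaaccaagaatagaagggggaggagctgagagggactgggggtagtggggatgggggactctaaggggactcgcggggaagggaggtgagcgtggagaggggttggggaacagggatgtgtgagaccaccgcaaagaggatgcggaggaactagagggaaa
Hes6, inner start, chr1:91413173-91413472: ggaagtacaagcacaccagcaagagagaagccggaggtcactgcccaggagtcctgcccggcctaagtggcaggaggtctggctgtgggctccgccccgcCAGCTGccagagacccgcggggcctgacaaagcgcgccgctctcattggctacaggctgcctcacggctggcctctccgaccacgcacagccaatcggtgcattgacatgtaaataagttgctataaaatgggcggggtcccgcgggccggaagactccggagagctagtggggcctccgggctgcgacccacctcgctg
Jag2, chr12:112929446-112929745: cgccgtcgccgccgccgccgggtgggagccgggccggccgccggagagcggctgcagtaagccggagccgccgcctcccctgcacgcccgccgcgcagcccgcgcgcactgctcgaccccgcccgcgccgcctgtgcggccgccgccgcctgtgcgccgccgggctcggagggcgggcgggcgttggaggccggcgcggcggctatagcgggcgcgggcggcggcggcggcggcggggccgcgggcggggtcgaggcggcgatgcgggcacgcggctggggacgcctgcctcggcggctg
The outer Dll1 window holds 3 E-boxes and the inner 1, the outer Hes6 window 3 and the inner 1, and the Jag2 window, with a GC content of 86.0%, holds none.

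RefSeq promoter windows matched 7 of the 10 genes, in 9 windows, and Hes1, Hey1 and Heyl have no entry. An E-box (CANNTG, which reads the same on both strands apart from its inner letters) was in 5 of the 9 windows, at Dll1, Jag1 and Hes6, against 72.3% of 32851 promoter windows. The CAGCTG form was in 4 windows of these 3 genes, against 16.3% of all. It lies at −132 from the outer Dll1 start, at −82 from the Jag1 start, and at −171 and −150 from the outer and inner Hes6 starts. TGGGAA, the core letters bound by RBPJ, was in none of the 9 windows on either strand, against 25.6% of all, which says only that these letters are not in these windows. CACNAG, the N-box associated with Hes repressors, was on either strand in 5 windows of 5 genes, against 42.5% of all. A match is a description of the letters and not a binding site.

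Total counts were 24.2 to 36.4 M per library (M stands for 10 to the power 6). Marker genes of myotubes summed to 36.02 to 37.8 CPM in GM and 4208 to 4632 CPM at 96 h, and those of myoblasts to 5657 to 5865 and 4189 to 4609 CPM. Most of the myoblast sum was Vim, with means of 4895 CPM in GM and 2071 CPM at 96 h. Myf5 also had a lower mean at 96 h than in GM, while Myod1, Des, Cdh15 and Cdh2 had higher means. Markers of endothelial cells, which use Notch signalling strongly, summed to at most 1.81 CPM in any library, and markers of macrophages to at most 2.35 CPM. Markers of quiescent satellite cells summed to 167 to 252 CPM, mostly from Sdc4 (group means of 131 to 187 CPM) and Cd34 (12.2 to 48.0 CPM). Pax7 had group means of 5.34 to 9.27 CPM and Spry1 of 1.37 to 13.3 CPM. Calcr was at 0 throughout, and Chodl reached at most 0.0703 CPM in any library. Markers of mural cells summed to 134 to 231 CPM, from Pdgfrb and Cspg4. Fibroblast markers summed to 265 to 295 CPM in GM, 188 to 190.4 CPM at 12 h and 475 to 520.2 CPM at 96 h. From GM to 96 h, Dcn went from 10.6 ± 1.64 to 163 ± 2.66 CPM and Col1a1 from 69.9 to 159 CPM. Ly6a went down from 185 to 163 CPM and Pdgfra from 12.5 to 9.60 CPM. Dpt and Lum reached at most 1.42 CPM in any library. The part of the fibroblast markers in the changes below was not tested. Of 6 glial markers, Erbb3 alone passed 1 CPM, with 9.52 ± 0.603 CPM in GM and 145 ± 6.75 CPM at 96 h, and Sox10 was at 0 throughout. In the third 24 h library, 86 protein-coding transcripts, among them the RNA polymerase II gene Polr2a, exceeded both of the remaining 24 h libraries by 0.5 (log2) or more; none of the 10 genes is among them. Cultures are bulk samples, so a change in the share of cells of a type cannot be told apart from a change of RNA per cell.

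The first question was which of the 10 genes differed from GM at each time. Below, changes are log2 fold changes ± SE from a fit over all 18 libraries, adjusted p-values come from the quasi-likelihood F test of edgeR, adjusted by Benjamini and Hochberg's method over all 15303 genes, and a gene is called, or said to rise or fall, at an adjusted p under 0.05. At 12 h, 9 of the 10 genes were called, 3 higher and 6 lower, against 35% of all genes tested (17.8% higher and 17.2% lower). At 24 h 6 were called, 4 higher and 2 lower, against 60.8% (30.2% and 30.6%). At 48 h 7 were called, 6 higher and 1 lower, against 65.4% (32.5% and 32.8%). At 60 h 9 were called, 6 higher and 3 lower, against 65.3% (33.1% and 32.2%), and at 96 h all 10 were called, 7 higher and 3 lower, against 68.8% (34.8% and 34.1%). The libraries of GM and of a time did not overlap for 9 of the genes at 12 h (45.3% of all genes tested), 6 at 24 h (64.5%), 7 at 48 h (70.7%), 10 at 60 h (70.3%) and 9 at 96 h (71.5%). The shares at 24 and 48 h are near those of all genes. The median change of the 10 was −0.41 at 12 h, −0.07 at 24 h, 0.30 at 48 h, 0.27 at 60 h and 0.44 at 96 h, and over all genes tested it was −0.000546 at 12 h and 0.00672 at 96 h. Over the whole course all 10 differed from GM at some time, as did 86% of all genes.

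**Figure D2:**
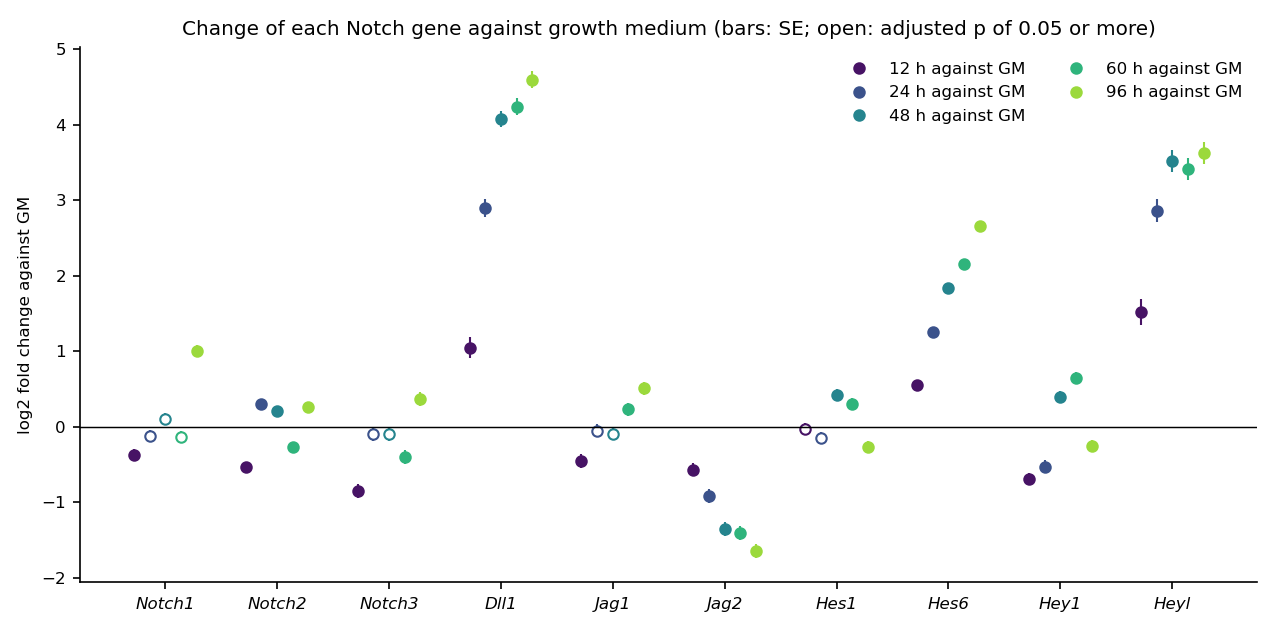
Log2 fold change against GM (vertical axis) of each gene at 12, 24, 48, 60 and 96 h in DM, from edgeR over 18 libraries; bars are the SE, and open circles have an adjusted p of 0.05 or more. Dll1, Hes6 and Heyl lie above 0 and Jag2 below 0 at every time, Hey1 crosses from −0.69 at 12 h to 0.65 at 60 h and back to −0.25 at 96 h.

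Of the receptors, Notch1 fell at 12 h, stayed near its GM level to 60 h and rose 2.01-fold at 96 h. Notch1 CPM in the 3 libraries of each group was in GM 31.7, 28.9 and 31.7, at 12 h 26.1, 23.9 and 21.2, at 24 h 26.6, 26.6 and 32.01, at 48 h 34.7, 33.1 and 31.4, at 60 h 26.3, 28.8 and 28.6, and at 96 h 61.5, 60.4 and 63.6. The 96 h libraries were the highest of the 18 and stood apart from all others, the 12 h libraries were the lowest of all, and the 24, 48 and 60 h libraries lay around those of GM. The change against GM was −0.37 ± 0.08 (adjusted p = 0.000565) at 12 h, −0.14 ± 0.08 (adjusted p = 0.12) at 60 h and 1.01 ± 0.07 (adjusted p = 4.59e-11) at 96 h. From 60 to 96 h the change was 1.15 ± 0.07 (adjusted p = 3.13e-11). In the order of the means, 12 h, 60 h, 24 h, GM, 48 h and 96 h, the neighbours 60 and 24 h, 24 h and GM, and GM and 48 h overlapped. Notch1 spans 26457902 to 26503822 of chromosome 2 on the minus strand.

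Notch2, a receptor of satellite cells as well, fell at 12 h, rose above GM at 24 and 48 h, fell below it at 60 h and rose again by 96 h. Notch2 CPM in the 3 libraries of each group was in GM 252, 248 and 259.9, at 12 h 184, 175 and 168, at 24 h 297, 279 and 357, at 48 h 297, 297 and 283, at 60 h 214, 209.9 and 210.0, and at 96 h 297, 296 and 321. The 12 h and 60 h libraries were the lowest groups and overlapped no other group, and the third 24 h library was the highest of all 18. Changes against GM were −0.53 ± 0.06 (adjusted p = 1.6e-06) at 12 h, 0.30 ± 0.06 (adjusted p = 0.000381) at 24 h, −0.26 ± 0.06 (adjusted p = 0.00109) at 60 h and 0.27 ± 0.06 (adjusted p = 0.000833) at 96 h. Without the third 24 h library the 24 h change was 0.20 (adjusted p = 0.00142). The 48 h change was 0.21 ± 0.06 (adjusted p = 0.00736), and 0.17 (adjusted p = 0.059) without the second GM library. The 48, 96 and 24 h groups overlapped as neighbours in level. Notch2 lies at 98013538 to 98150367 of chromosome 3, on the plus strand.

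Notch3, which in mouse muscle is known to restrain satellite cell proliferation, fell at 12 h and rose to 24 h. It fell again from 48 to 60 h and rose to 96 h. Like Notch2 it was lowest at 12 h, but unlike Notch2 it was not called above GM at 24 or 48 h. Notch3 CPM in the 3 libraries of each group was in GM 82.5, 72.2 and 76.7, at 12 h 47.5, 43.4 and 37.1, at 24 h 73.2, 61.5 and 81.9, at 48 h 75.3, 72.3 and 68.4, at 60 h 59.9, 53.3 and 61.8, and at 96 h 93.9, 97.8 and 106. Every 12 h library was below every other library, and the 96 h libraries were all above the GM libraries. Relative to GM the changes were −0.85 ± 0.09 (adjusted p = 3.51e-07) at 12 h, −0.40 ± 0.09 (adjusted p = 0.000611) at 60 h and 0.37 ± 0.09 (adjusted p = 0.00104) at 96 h, with −0.095 ± 0.09 (adjusted p = 0.374) at 24 h and −0.097 ± 0.09 (adjusted p = 0.355) at 48 h. The 48 h, 24 h and GM groups overlapped as neighbours in level. Notch3 lies at 32120820 to 32166896 of chromosome 17, on the minus strand.

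Between neighbouring times all 3 receptors rose from 12 to 24 h, by 0.26 ± 0.08, 0.83 ± 0.06 and 0.76 ± 0.09 for Notch1, Notch2 and Notch3 (adjusted p = 0.00635, 4.06e-10 and 4.16e-07). All 3 then fell from 48 to 60 h, with changes of −0.24 ± 0.08, −0.47 ± 0.06 and −0.30 ± 0.09 (adjusted p = 0.0213, 1.76e-05 and 0.0179). They rose again from 60 to 96 h, Notch2 by 0.53 ± 0.06 (adjusted p = 5.51e-07) and Notch3 by 0.77 ± 0.09 (adjusted p = 4.34e-07). Without the first 48 h library the falls of Notch1 and Notch3 from 48 to 60 h were −0.24 (adjusted p = 0.071) and −0.30 (adjusted p = 0.0561), and without the third 24 h library the rise of Notch1 from 12 to 24 h was 0.15 (adjusted p = 0.0891). Of all genes tested, 27.8% rose from 12 to 24 h, 11.3% fell from 48 to 60 h and 22.6% rose from 60 to 96 h. Over all 10 genes 8 were called from 12 to 24 h (54.3% of all genes), 7 from 24 to 48 h (32.3%), 6 from 48 to 60 h (27.2%) and 9 from 60 to 96 h (47.2%).

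The set of 86 transcripts that stands high in the third 24 h library also differed between times. Its mean log2 CPM was 5.17 to 5.32 in GM, 4.51 to 4.58 at 12 h, 4.68 to 4.89 at 48 h, 4.35 to 4.42 at 60 h and 5.33 to 5.44 at 96 h, and at 24 h it was 4.78, 4.61 and 5.48 in the 3 libraries. Like the receptors, the set was lower at 12 h than in GM and higher at 24 h than at 12 h. It was also lower at 60 h than at 48 h and higher at 96 h than at 60 h, as they were. At 48 h the set was below GM, where Notch2 was above GM and Notch1 and Notch3 were not called. Its lowest group was 60 h, where that of each receptor was 12 h. The receptors were higher in the third 24 h library than in the other 24 h libraries by 0.27, 0.26 and 0.16 (log2) for Notch1, Notch2 and Notch3. Of 9119 protein-coding genes, 5.56% were higher there by at least 0.2, a size that Notch3 did not reach. Heyl, Jag1 and Jag2 were also higher there, by 0.14, 0.12 and 0.045, while Dll1, Hes1, Hes6 and Hey1 were not. With the mean of this set as a covariate in the fit, the 60 h change of Notch2 was 0.063 (adjusted p = 0.488) and that of Notch3 −0.04 (adjusted p = 0.829), and the 12 h change of Notch1 was −0.15 (adjusted p = 0.329). The 12 h falls of Notch2 and Notch3 were −0.27 (adjusted p = 0.00424) and −0.56 (adjusted p = 0.00168) in that fit. The 96 h rise of Notch1 against GM was 0.96 (adjusted p = 9.62e-12). Of the steps between times, the rise of Notch1 from 12 to 24 h was 0.12 (adjusted p = 0.232), and the falls of Notch1 and Notch3 from 48 to 60 h were −0.10 (adjusted p = 0.444) and −0.12 (adjusted p = 0.431). The rises of Notch2 and Notch3 from 60 to 96 h were 0.14 (adjusted p = 0.243) and 0.34 (adjusted p = 0.124) in that fit, so neither was called. The covariate differs between the groups, so in this fit its part and that of time cannot be told apart fully.

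**Figure D3:**
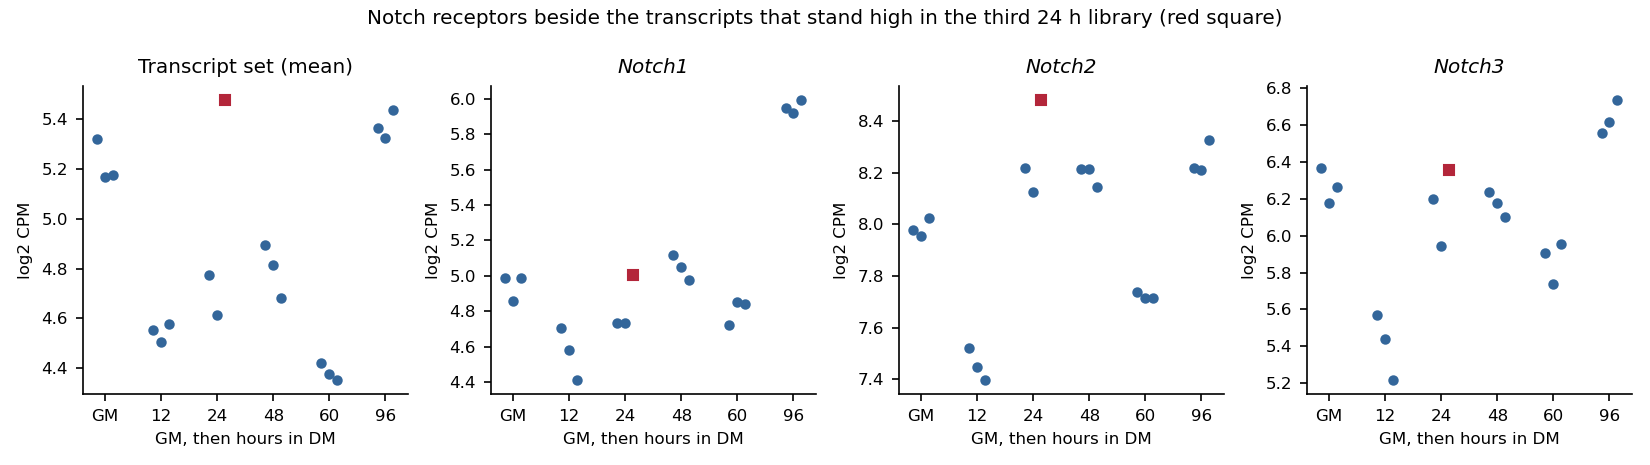
Log2 CPM in every library (vertical axis, separate range in each panel) by group for the mean of the 86 transcripts and for Notch1, Notch2 and Notch3; each point is 1 library and the red square is the third 24 h library. All 4 panels are low at 12 h and higher at 96 h than at 60 h. The red square is the highest 24 h point in each, which for the 86 transcripts follows from how they were chosen.

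Of the ligands, Dll1 showed the largest change of the 10 genes. Dll1 is the Delta ligand known to be needed to keep muscle progenitors in the embryo, and it rose at 12 h and was highest at 96 h. Dll1 CPM in the 3 libraries of each group was in GM 1.37, 2.29 and 1.96, at 12 h 3.59, 4.46 and 3.74, at 24 h 12.6, 15.3 and 14.5, at 48 h 32.6, 32.6 and 30.9, at 60 h 35.3, 35.8 and 36.5, and at 96 h 46.4, 43.5 and 48.2. The groups followed the order of time without overlap, from a highest GM library of 2.29 CPM to a lowest 96 h library of 43.5 CPM. Changes against GM were 1.05 ± 0.14 (adjusted p = 5.8e-06) at 12 h, 2.89 ± 0.12 (adjusted p = 8.9e-15) at 24 h, 4.07 ± 0.11 (adjusted p = 6e-18) at 48 h, 4.24 ± 0.11 (adjusted p = 2.67e-18) at 60 h and 4.60 ± 0.11 (adjusted p = 1.42e-19) at 96 h. The steps from 12 to 24 h (1.84 ± 0.10 (adjusted p = 1.07e-12)) and from 24 to 48 h (1.18 ± 0.08 (adjusted p = 3.5e-10)) were the largest after 12 h. From 48 to 60 h the change was 0.16 ± 0.08 (adjusted p = 0.128), although the groups did not overlap. Dll1 lies at 15367354 to 15376932 of chromosome 17, on the minus strand.

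Jag2, a ligand of the Jagged type, went the opposite way, and all of its changes against GM were falls. Jag2 CPM in the 3 libraries of each group was in GM 54.8, 50.7 and 47.7, at 12 h 38.5, 36.4 and 28.5, at 24 h 25.97, 27.2 and 28.02, at 48 h 19.8, 20.8 and 19.4, at 60 h 20.9, 20.5 and 16.9, and at 96 h 15.8, 15.9 and 17.2. The GM libraries were above all others, and the 48, 60 and 96 h libraries were the lowest, with the 96 and 60 h groups and the 60 and 48 h groups overlapping. Its changes from GM were −0.57 ± 0.09 (adjusted p = 2.53e-05) at 12 h, −0.92 ± 0.09 (adjusted p = 9.31e-09) at 24 h, −1.35 ± 0.09 (adjusted p = 2.29e-11) at 48 h, −1.40 ± 0.09 (adjusted p = 1.45e-11) at 60 h and −1.64 ± 0.09 (adjusted p = 6.25e-13) at 96 h. The last step, from 60 to 96 h, was −0.24 ± 0.10 (adjusted p = 0.0473), and it was not called without the first 96 h library, at −0.20 (adjusted p = 0.169). It was lost in 15 of the 18 fits that leave out 1 library. Jag2 lies at 112907803 to 112929812 of chromosome 12, on the minus strand.

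Jag1, the other Jagged ligand, fell at 12 h, was near GM at 24 and 48 h and was highest at 96 h. Jag1 CPM in the 3 libraries of each group was in GM 12.2, 12.9 and 12.4, at 12 h 8.30, 9.40 and 9.73, at 24 h 11.3, 11.98 and 13.00, at 48 h 11.02, 13.3 and 10.98, at 60 h 14.7, 15.01 and 14.5, and at 96 h 15.9, 19.5 and 18.04. The 12 h libraries were below all others, and the 60 and 96 h libraries were above all others. The fitted changes from GM were −0.45 ± 0.09 (adjusted p = 0.000461) at 12 h, 0.23 ± 0.09 (adjusted p = 0.0255) at 60 h and 0.51 ± 0.09 (adjusted p = 1.99e-05) at 96 h. The 60 h change was 0.19 (adjusted p = 0.114) without the first GM library and 0.13 (adjusted p = 0.217) when libraries were scaled by total counts. It was lost in 8 of the 18 fits that leave out 1 library. With the covariate for the 86 transcripts the 12 h and 60 h changes were −0.35 (adjusted p = 0.0803) and 0.36 (adjusted p = 0.0639). The neighbours 48 and 24 h, and 24 h and GM, overlapped in level. Jag1 lies at 137081451 to 137116520 of chromosome 2, on the minus strand.

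Of the transcription factor genes, Hes6 rose at each time, as Myog did. Hes6 CPM in the 3 libraries of each group was in GM 24.6, 23.7 and 25.3, at 12 h 36.1, 38.8 and 33.2, at 24 h 60.5, 60.7 and 54.98, at 48 h 82.3, 88.95 and 92.3, at 60 h 111, 104 and 114, and at 96 h 149, 149.5 and 164. No groups overlapped, and their order was that of time. Relative to GM, the fit gave 0.56 ± 0.06 (adjusted p = 1.06e-06) at 12 h, 1.26 ± 0.06 (adjusted p = 3.06e-13) at 24 h, 2.16 ± 0.06 (adjusted p = 2.37e-17) at 60 h and 2.65 ± 0.06 (adjusted p = 2.2e-19) at 96 h. Each step between neighbouring times was also called, the smallest being 0.32 ± 0.06 (adjusted p = 0.000458) from 48 to 60 h. Myog, the factor that drives terminal differentiation, was at 13.4 ± 0.201 CPM in GM and 803 ± 15.3 CPM at 96 h. Hes6 lies at 91411483 to 91414038 of chromosome 1, on the minus strand.

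Heyl, a Hey family repressor, was nearly absent in GM and rose until 48 h. Heyl CPM in the 3 libraries of each group was in GM 0.704, 0.886 and 0.931, at 12 h 2.60, 2.30 and 2.43, at 24 h 5.98, 5.95 and 6.60, at 48 h 9.31, 10.5 and 9.45, at 60 h 10.7, 8.21 and 8.25, and at 96 h 11.4, 9.55 and 10.5. Every DM library was above every GM library, and the 48, 60 and 96 h groups overlapped as neighbours in level. Its changes from GM were 1.52 ± 0.17 (adjusted p = 6.39e-07) at 12 h, 2.86 ± 0.15 (adjusted p = 6.79e-13) at 24 h, 3.52 ± 0.15 (adjusted p = 7.77e-15) at 48 h, 3.41 ± 0.15 (adjusted p = 1.44e-14) at 60 h and 3.63 ± 0.15 (adjusted p = 1.54e-15) at 96 h. After 48 h the steps were −0.11 ± 0.11 (adjusted p = 0.475) to 60 h and 0.22 ± 0.10 (adjusted p = 0.092) to 96 h. Without the first 60 h library the last step was 0.35 (adjusted p = 0.0093). Heyl lies at 123233556 to 123249870 of chromosome 4.

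Hey1, another Hey family repressor, fell first, peaked at 60 h and ended below GM. Hey1 CPM in the 3 libraries of each group was in GM 10.8, 9.78 and 11.7, at 12 h 6.49, 7.32 and 6.07, at 24 h 7.28, 7.96 and 7.10, at 48 h 14.5, 13.7 and 14.3, at 60 h 17.2, 16.6 and 16.9, and at 96 h 8.89, 9.08 and 9.07. The 60 h libraries were the highest and the 48 h libraries the next, both above all GM libraries, and the 12 and 24 h libraries were below all others and overlapped. Changes against GM were −0.69 ± 0.08 (adjusted p = 1.05e-06) at 12 h, −0.53 ± 0.08 (adjusted p = 9.46e-06) at 24 h, 0.40 ± 0.08 (adjusted p = 0.000119) at 48 h, 0.65 ± 0.08 (adjusted p = 1.71e-07) at 60 h and −0.25 ± 0.08 (adjusted p = 0.00844) at 96 h. Hey1 rose by 0.92 ± 0.08 (adjusted p = 1.06e-08) from 24 to 48 h, and from 60 to 96 h its change was −0.90 ± 0.08 (adjusted p = 3.74e-09). The 96 h change against GM was −0.19 (adjusted p = 0.0613) without the third GM library. Hey1 lies at 8663359 to 8667038 of chromosome 3.

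Hes1, the best known Notch target, changed least among the 10 genes, with a range of 1.60-fold. Hes1 CPM in the 3 libraries of each group was in GM 23.02, 20.7 and 24.2, at 12 h 24.02, 22.1 and 20.2, at 24 h 22.00, 19.7 and 19.8, at 48 h 28.5, 32.02 and 30.1, at 60 h 27.8, 27.6 and 28.5, and at 96 h 20.8, 16.7 and 19.02. The 48 and 60 h libraries were above all others, while the 96 h, 24 h, 12 h and GM groups overlapped as neighbours in level. Against GM the fit gave −0.031 ± 0.08 (adjusted p = 0.796) at 12 h, 0.42 ± 0.08 (adjusted p = 8.66e-05) at 48 h, 0.31 ± 0.08 (adjusted p = 0.00181) at 60 h and −0.26 ± 0.08 (adjusted p = 0.00688) at 96 h, where the libraries overlapped with those of GM. With the covariate for the 86 transcripts the 60 h change was 0.27 (adjusted p = 0.137). Hes1 rose by 0.56 ± 0.08 (adjusted p = 1.03e-05) from 24 to 48 h, as Hey1 did, and from 60 to 96 h its change was −0.57 ± 0.08 (adjusted p = 4.71e-06). Hes1 lies at 30065357 to 30067796 of chromosome 16.

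For each gene, the 3 genes with the highest Pearson r of log2 CPM over the 18 libraries were taken among those whose log2 CPM averaged 3 or more, as a description. The libraries share the times and the third 24 h library. Hes6 was closest to Pttg1ip (r = 0.997), Myog (0.996) and Pkig (0.995), and Dll1 to Nbr1 (0.994), Ctsf (0.993) and Sema3d (0.992). Heyl was closest to Kansl1l (0.993), Stom (0.992) and Adamts5 (0.989), and Jag2 to Cdr2l (0.984), Pmm1 (0.981) and Dusp5 (0.979). For the receptors the closest genes were Rapgef1 (0.984), Map7d1 (0.981) and Ptpn21 (0.977) for Notch1, Prune2 (0.969), Hdac4 (0.9497) and Map1b (0.936) for Notch2, and Zswim8 (0.949), Ski (0.948) and Pkd1 (0.945) for Notch3. Jag1 was closest to Igfbp4 (0.930), Focad (0.917) and Ric8a (0.910). The likeness was weakest for Hes1, with Mex3b (0.897), Med30 (0.839) and Marcksl1 (0.834), and Hey1 was closest to Ly6a (0.932), Ddx42 (0.927) and Mtx3 (0.892).

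The rest of the pathway was described over 68 further genes in 9 lists, of which 55 passed the filter. Of these, 13 were called higher and 16 lower at 12 h (52.7% called, against 35% of all genes), 25 and 11 at 24 h (65.5%, against 60.8%) and 26 and 16 at 48 h (76.4%, against 65.4%). At 60 h 23 were higher and 22 lower (81.8%, against 65.3%, of which 33.1% higher and 32.2% lower), and at 96 h 32 and 11 (78.2%, against 68.8%). The share at 24 h is near that of all genes. The median change was 0.08 at 60 h and 0.23 at 96 h. The other ligands and receptors and most other Hes and Hey genes were hardly detected: 13 genes of the lists did not enter the test, 6 of them (Dlk1, Dtx1, Hes3, Hes5, Helt and Calcr) with no count in any library. A count of 0 allows up to 0.0824 to 0.124 CPM, depending on the library, for 3 counts and counting error only. The highest of the 13 in any library was Dner at 0.611 CPM, and Dll4, the Delta ligand of endothelium, reached 0.0382 CPM. Nrarp, a Notch target that limits the signal, was called higher only at 12 h among the times, at 1.07 ± 0.23 (adjusted p = 0.00122), with 0.815 ± 0.0502 CPM in GM and 1.72 ± 0.305 CPM at 12 h. Dlk2, a Delta-like relative, was lower at 60 h (−1.59 ± 0.44 (adjusted p = 0.0034)). Its level was near the floor, at 0.714 ± 0.204 CPM in GM and 0.238 ± 0.191 CPM at 60 h.

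Genes that act on the receptor went both ways at 60 h, where 65.3% of all genes tested were called, 33.1% higher and 32.2% lower. Of 10 genes for receptor cleavage 5 were higher and 3 lower. Aph1c and Psen2, of gamma-secretase, were higher at 1.06 ± 0.26 (adjusted p = 0.00138) and 0.75 ± 0.10 (adjusted p = 7.23e-07). Aph1c was low, at 0.841 ± 0.267 CPM in GM and 1.74 ± 0.346 CPM at 60 h. Furin, which cuts the receptor during its maturation, was lower at −0.66 ± 0.11 (adjusted p = 3.28e-05), as were Adam10 at −0.30 ± 0.07 (adjusted p = 0.000781) and Aph1a at −0.14 ± 0.05 (adjusted p = 0.0292). Without the first 60 h library the Aph1a change was −0.11 (adjusted p = 0.116). Of 5 tested genes for receptor glycosylation 1 was higher and 3 lower, with the Fringe genes Lfng and Rfng lower at −0.49 ± 0.09 (adjusted p = 7.33e-05) and −0.39 ± 0.12 (adjusted p = 0.00847) and Eogt at −0.28 ± 0.06 (adjusted p = 0.00013), against Poglut1 at 0.24 ± 0.06 (adjusted p = 0.00127). Of 9 tested genes for receptor trafficking and turnover 7 were higher and 2 lower. Dtx4, a Deltex family gene, rose the most of all pathway genes called at 60 h, at 2.07 ± 0.05 (adjusted p = 1.19e-18), from 16.1 ± 0.564 to 67.7 ± 3.53 CPM. Itch, a ubiquitin ligase, was higher at 0.50 ± 0.05 (adjusted p = 5.58e-09), and Cbl and Dtx2 were lower at −1.52 ± 0.22 (adjusted p = 3.71e-06) and −0.43 ± 0.07 (adjusted p = 1.16e-05).

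All 6 genes for ligand endocytosis, the step that pulls on the bound receptor, were called at 60 h, 2 higher and 4 lower. For this and the lists below, the share over all genes tested was 65.3% called, 33.1% higher and 32.2% lower. Neurl1a was higher at 1.20 ± 0.08 (adjusted p = 3.9e-11) and Mib1 at 0.36 ± 0.04 (adjusted p = 2.96e-07), while Neurl1b was lower at −1.10 ± 0.09 (adjusted p = 8.57e-10) and the epsin gene Epn1 at −0.57 ± 0.07 (adjusted p = 2.56e-07). All 7 genes of the nuclear complex were called, 4 higher and 3 lower. The acetyltransferase gene Kat2b was higher at 0.93 ± 0.05 (adjusted p = 1.71e-12), and Ep300, Maml1 and Rbpj were lower at −0.85 ± 0.12 (adjusted p = 3.61e-06), −0.63 ± 0.08 (adjusted p = 1.17e-06) and −0.37 ± 0.07 (adjusted p = 0.000121). Of 10 co-repressors of RBPJ and Hes factors 1 was higher, Cir1 at 0.97 ± 0.06 (adjusted p = 1.17e-11), and 6 were lower, with Spen at −0.87 ± 0.17 (adjusted p = 0.000157) and Ctbp2 at −0.58 ± 0.06 (adjusted p = 1.69e-08). Of 5 tested genes described as Notch-dependent in satellite cells 3 were higher, the collagen genes Col6a1 at 1.12 ± 0.07 (adjusted p = 2.07e-12), Col5a3 at 0.94 ± 0.09 (adjusted p = 4.63e-09) and Col6a2 at 0.50 ± 0.09 (adjusted p = 2.75e-05), and Calcr, which marks quiescent satellite cells, was at 0. Cbl, Ep300 and Spen belong to the 86 transcripts that stand high in the third 24 h library. With that covariate, the 60 h change of Cbl was −0.24 (adjusted p = 0.131), of Ep300 −0.12 (adjusted p = 0.271), of Spen 0.14 (adjusted p = 0.331), of Furin −0.086 (adjusted p = 0.591), of Adam10 −0.02 (adjusted p = 0.883), of Aph1a −0.15 (adjusted p = 0.222), of Rfng −0.24 (adjusted p = 0.38), of Poglut1 −0.02 (adjusted p = 0.868) and of Dlk2 −0.69 (adjusted p = 0.611).

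**Figure D4:**
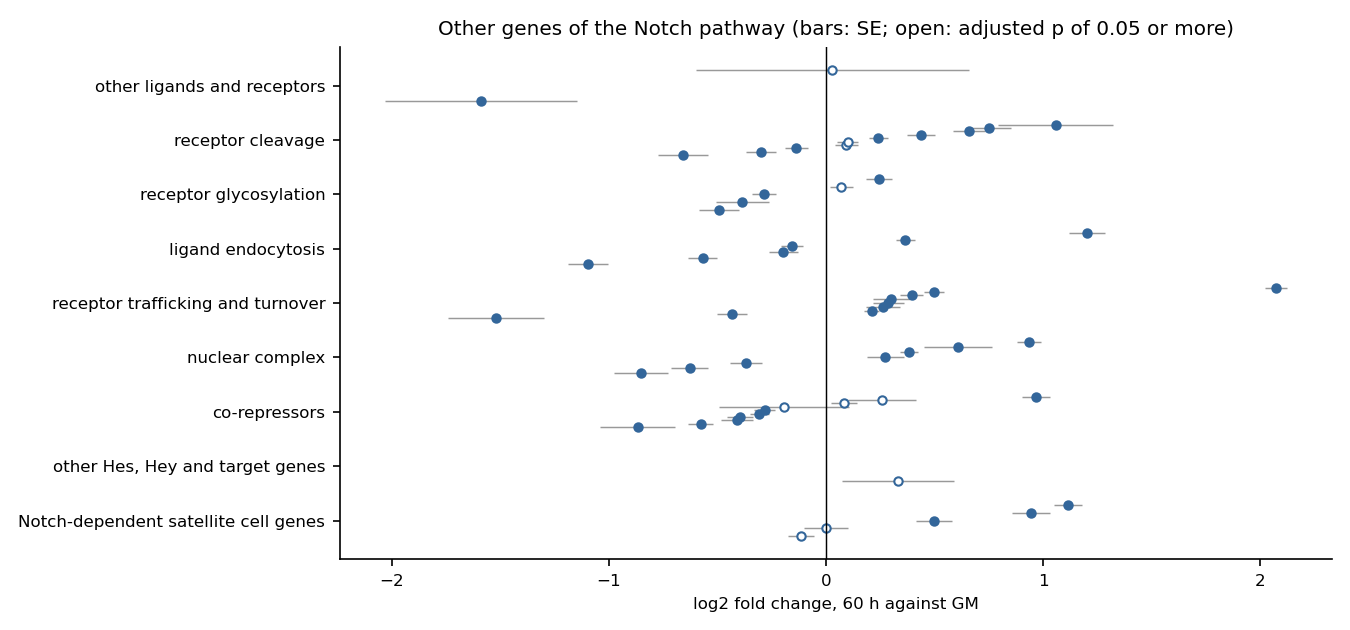
Log2 fold change at 60 h against GM (horizontal axis) of the 55 tested genes of the 9 pathway lists, from edgeR; each point is 1 gene, bars are the SE and open circles have an adjusted p of 0.05 or more. Changes run from −1.59 (Dlk2, at only 0.714 CPM in GM) to 2.07 (Dtx4), and most co-repressors lie below 0.

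ATAC-seq peaks at the 10 genes were taken from the deposited lists, 1 for GM (181622 peaks, of which 19.63% overlapped no 60 h peak) and 1 for 60 h (189516 peaks, 23.26% overlapping no GM peak). With 1 list per condition there is no replicate check and no test, and the authors' fold over background and q describe a peak within its list. All 7 genes with a listed start had a peak within 1 kb of a start in both lists, as did 95.3% of 10066 genes in GM and 95.6% at 60 h. At Dll1 that peak, 15375192 to 15376691 of chromosome 17 at 60 h, covers the inner start and the inner window printed above, and ends short of the outer start at 15376932. At Hes6 the peak, 91412649 to 91414766 of chromosome 1, covers both starts. These promoter peaks of Dll1 and Hes6 were in the GM list too, and Jag2 kept its own at 60 h, at 112928439 to 112930420 of chromosome 12.

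Within the gene and 10 kb on either side, a peak found in the 60 h list only was present at 7 of the 10 genes, against 58.6% of 13519 genes, and a peak found in the GM list only at 3, against 60.9%. Many of these are weak. With a −log10 q of at least 5 the genes were 3 at 60 h (Notch1, Notch2 and Jag1), against 36.3% of genes, and 1 in GM (Jag1), against 33.8%. The clearest was in Jag1, at 137100917 to 137101668 of chromosome 2, inside the gene and 14852 bases downstream of its start. Its fold was 6.28 and its −log10 q 116.47, it was the highest peak of Jag1 in the 60 h list, and 99.5% of the 44076 peaks of the 60 h list only had a lower fold. A pair of smaller peaks of the 60 h list only lay next to it, with folds of 2.31 and 2.03. At Notch1 a peak of the 60 h list only lay upstream, its near edge at −9175 from the start, at 26512997 to 26513673 of chromosome 2, with a fold of 3.20. Jag2 had 12 peaks in the GM list and 9 at 60 h, with 3 of the GM list only, each with a −log10 q of at most 2.82. Notch2 had 36 and 51 peaks, Notch1 9 and 15, and Notch3 11 and 12.

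Hes1 had 6 peaks in each list and Hes6 had 5, and all were shared. Hey1 had 2 peaks in GM and 3 at 60 h, the third a weak one 165 bases wide. Heyl, whose RNA was at 0.840 ± 0.120 CPM in GM, had 8 peaks in the GM list and 9 at 60 h. Its highest peak at 60 h, inside the gene at 123239178 to 123240222 of chromosome 4, had a fold of 6.84, and the GM list holds a peak there with a fold of 6.46. Dll1 had 6 peaks in GM and 7 at 60 h, the added one with a fold of 1.53.

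**Figure D5:**
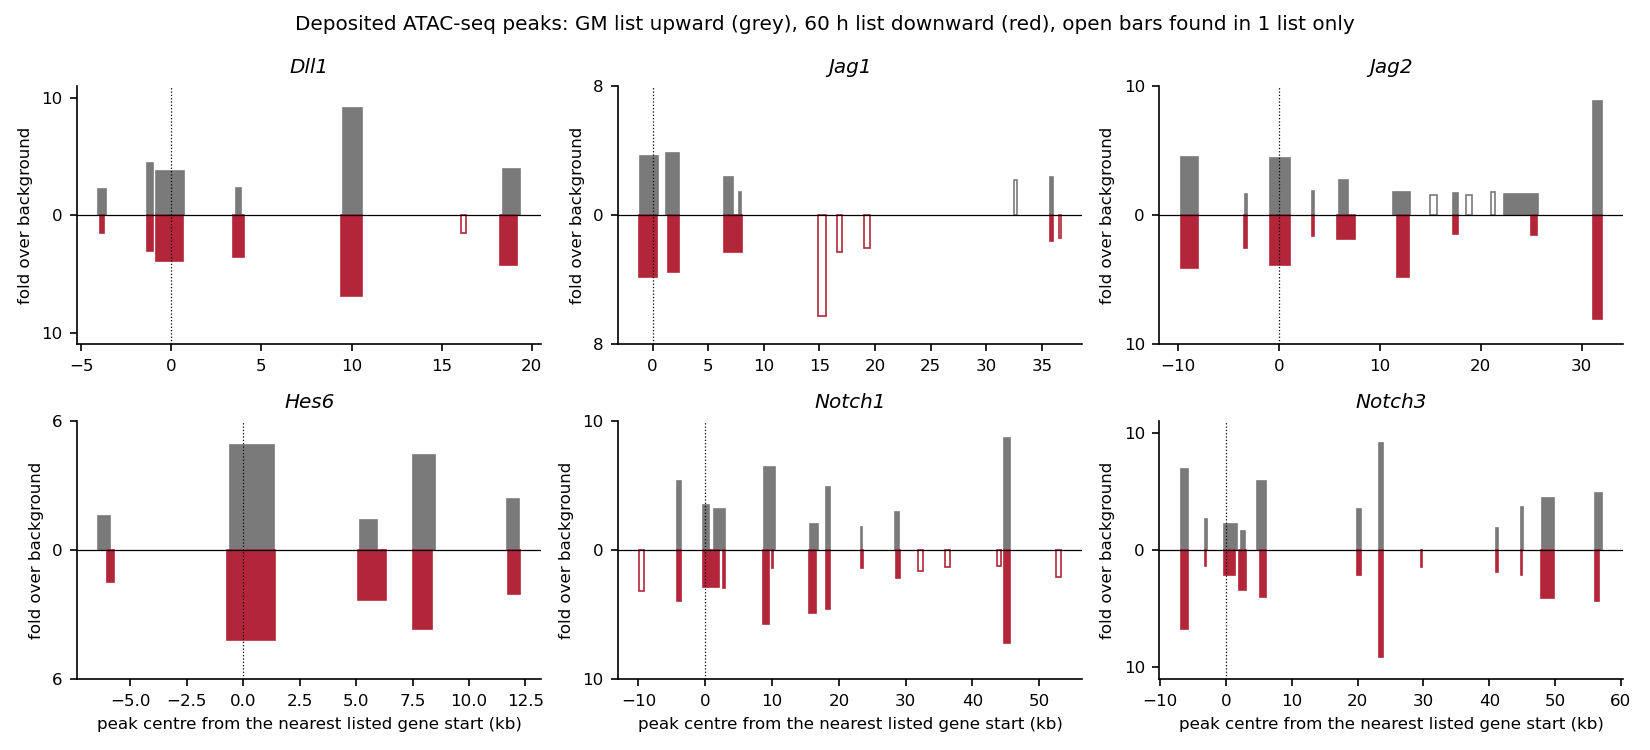
Fold over background (vertical axis) of each deposited ATAC-seq peak by the distance of its centre from the nearest listed start (horizontal axis, kb, downstream positive) at Dll1, Jag1, Jag2, Hes6, Notch1 and Notch3. GM peaks point up in grey and 60 h peaks down in red, widths are peak widths, and open bars are peaks found in 1 list only; the open bar that reaches furthest down in Jag1 has a fold of 6.28.

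The deposited Hi-C loops have 25 kb anchors and a condition label, with no count or p-value, and 51.13% of all loops were labelled GM only, 37.71% 60 h only and 11.16% both. All 10 genes overlapped an anchor, as did 88% of 13519 genes. An anchor of a GM only loop was at 7 of the genes, against 77% of genes, one of a 60 h only loop at 9, against 67.2%, and one of a loop in both at 8, against 38.6%. Notch2 had 8 GM only loops and 3 at 60 h only, Jag2 had 2 GM only and no other, and Hey1 had 3 at 60 h only and none in GM only. Jag1 had 12 loops, 5 GM only, 5 at 60 h only and 2 in both. The Hes6 anchor was joined in both conditions to one 75 kb away that holds the start of Traf3ip1. The Heyl anchor was joined in both to one 1475 kb away with the starts of Fhl3 and Sf3a3. At Notch1 a 60 h only loop of 975 kb reached the start of Traf2 and another of the same length that of Vav2. These are labels of 1 table, and no difference between conditions was tested.

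The topologically associating domains (TADs), called on 40 kb bins in 1 set per condition, held Jag1 in the same domain of 1080 kb and Hes1 in the same domain of 840 kb in both sets. Dll1 lay in a domain of 520 kb in GM and 480 kb at 60 h, Notch1 in one of 1040 and 1080 kb, and Jag2 in one of 1600 and 1440 kb. Hey1 was inside a domain of 1400 kb in GM, 12963 bases from a boundary, and at 60 h it lay in a boundary bin, 8640001 to 8680000 of chromosome 3. Heyl was in a domain of 960 kb in GM, and the 60 h set lists no domain over it. Of the 7 genes with a listed start, 1 (Hes6) had it within 40 kb of a boundary in GM, against 17.7% of genes, and 0 at 60 h, against 18.5%. The boundary nearest Hes6 began at 91440001 of chromosome 1 in GM and at 91480001 at 60 h, which are neighbouring 40 kb bins. Its distance was 25963 bases in GM and 65963 bases at 60 h, and the domain had 640 kb in both sets.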

How the data were processed

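For 18 RNA-seq libraries the authors deposited gene counts in whole numbers; they also deposited 1 broad ATAC-seq peak list per condition, and, from Hi-C, 1 loop table and 1 set of TADs and boundaries per condition. Genome build mm10 and the tools Bowtie2 2.2.6, MACS2 2.2.7, HiC-Pro 2.9.0, RSEM 1.3.0, STAR, SAMtools 1.9, deepTools 2.5.2, edgeR and DESeq2 are named, without roles, by the submitters' processing notes. Each deposited peak carries the authors' fold enrichment, a ratio over background, and −log10 q. The sources used here do not say whether libraries were pooled for calling. The boundaries carry a deposited score of unstated scale. The deposited loops carry a condition label.

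Counts of 15303 genes kept by filterByExpr were fitted with edgeR 4.0.16 in R 4.3.3 (quasi-likelihood F test on TMM-scaled counts, with group as the only factor, 12 residual degrees of freedom, common biological coefficient of variation 0.0621). The script was tested on simulated data. An SE is the absolute log2 fold change over the root of its F value. CPM is counts scaled to 10 to the power 6 of the effective library size, and log2 CPM has a prior count of 2. Values after ± beside CPM are the SD of 3 libraries. Peaks and loops were joined to RefSeq positions on GRCm38.p6, which has the coordinates of mm10, with an overlap of at least 1 base. The sources used here do not say whether counting used strand, and genes that overlap the 10 may share reads with them.

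The 10 genes, the pathway and marker lists and the tests were chosen with earlier results of these data known. Named genes are the 10; in each pathway list, the called genes with the 3 largest changes at 60 h and those called against most of the list; the 3 genes most like each of the 10; and Myod1, Myog and Polr2a. Genes named for a value near 0, single marker genes and Nrarp were chosen after their values were seen. One pathway gene was left out of the lists and is not reported here. No replicate pair was alike within sampling noise. Alternatives were other scalings, filters and tests (DESeq2 1.42.0, limma-voom in limma 3.58.1), a replicate block, fits of 6 libraries, leaving out each library, a covariate for 86 transcripts, and other windows for peaks, loops and boundaries.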

Additional observations from a re-analysis of the deposited data

How the results depend on the processing

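Of 433 values of the counts of genes called or of genes at a peak, anchor or boundary under alternatives, 426 stayed within 1.5 times the reported value. Many values here and below come from fits that leave out 1 library of neither group compared, where agreement is partly built in. With the covariate for the 86 transcripts, members called were 5 at 60 h against GM, 3 from 48 to 60 h and 4 from 60 to 96 h. At 12 h against GM, 12 pathway genes were called in that fit. Calls also dropped over all 15303 genes tested. At 60 h against GM, 3543 genes were higher and 3578 lower, from 5058 and 4930 without the covariate. From 48 to 60 h these were 1084 and 867, from 2425 and 1732. From 60 to 96 h they were 1381 and 1451, from 3455 and 3769. At 12 h against GM they were 1321 and 1386, from 2719 and 2634. The same covariate turned the 60 h change against GM of Notch2 to 0.063 (adjusted p = 0.488), Spen to 0.14 (adjusted p = 0.331) and Poglut1 to −0.020 (adjusted p = 0.868). The covariate differs between groups, and the cause of these shifts was not tested. Leaving out 1 library at a time gave 2 to 6 members called from 48 to 60 h, with 2 without the first 48 h library. In that fit 1192 of all 15572 genes tested were higher and 1437 lower from 48 to 60 h. Members at a TAD boundary, with the span used for genes without a listed start, were 2 in GM and 1 at 60 h within 40 kb, 0 in GM where the boundary bin had to hold the start and 2 at 60 h within 80 kb. For single genes, the fit with the covariate kept direction and call for 88 values, lost the call for 21, gained it for 1 and changed sign for 8. Over all alternatives there were 3303 values for single genes. Of these, 3182 kept direction and call, 83 lost the call, 15 gained it and 23 changed sign, 20 of them for changes called in neither fit. These 20 include, with the covariate, Notch1 at 60 h (0.14), Notch3 at 24 h (0.013) and 48 h (0.085) against GM and from 24 to 48 h (0.072), and Jag2 from 48 to 60 h (0.0016). Hes1 at 12 h was 0.0029 with total-count scaling and 0.0083 without the filter, Jag1 at 24 h was 0.0056 with total-count scaling, and Notch3 from 24 to 48 h was 0.0098 with limma-voom and 0.0011 with the replicate block. Leaving out 1 library at a time gave −0.074 to 0.056 for Hes1 at 12 h, −0.089 to 0.0052 for Jag1 and −0.18 to 0.028 for Notch3 at 24 h against GM, −0.16 to 0.0059 for Jag1, −0.17 to 0.011 for Notch2 and −0.12 to 0.089 for Notch3 from 24 to 48 h, and −0.10 to 0.047 for Jag2 from 48 to 60 h. Dll1, Hes6, Heyl and Jag2 kept their calls against GM at every time under every alternative run.

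The replicate numbers showed no sign of pairing the samples. For this, each gene's group mean was taken off its log2 CPM, and the remainders were correlated between libraries of different groups. Libraries with the same number had correlations of −0.181 to 0.154 (median −0.011 over 45 pairs). Those with other numbers had −0.161 to 0.181 (median 0.00421 over 90 pairs). In these remainders 1 of 18 libraries correlated best with one of its own number. With the replicate block the members called were 9 at 12 h, 6 at 24 h, 7 at 48 h, 9 at 60 h and 10 at 96 h against GM, as without it.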

Other observations

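Of 7 RefSeq gene models that overlap the 10 genes, 3 were found by symbol in the count table, and the others were not measured here. Among the latter is LOC115489673, a protein-coding model that overlaps Hey1 and was not looked up. 0610009E02Rik, a non-coding gene model that overlaps Notch1, was at 0.274 ± 0.0786 CPM in GM and 0.337 ± 0.151 CPM at 96 h (SD, n = 3), and the microRNA genes Mir6996, within Notch1, and Mir6941, within Jag2, had no count in any library.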
